A study of Arabidopsis thaliana with 9 samples.

Results

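The genes described here are those whose signal set the AtSPP-overexpressed lines apart from both Col-0 and the AtSPP knockdown lines on Affymetrix ATH1 arrays of whole Arabidopsis thaliana seedlings. AtSPP (AT2G03120) encodes a signal peptide peptidase. Members were chosen by their measured signal: all 3 AtSPP-overexpressed arrays lay above, or all 3 below, the 6 other arrays, the group mean differed from that of Col-0 by at least 0.0001, and the knockdown and Col-0 arrays overlapped. Of 22746 probe sets tested, 53 were members, 22 with a higher and 31 with a lower signal in the AtSPP-overexpressed lines. Because this selection used the comparisons among all 3 groups, the differences between groups below are a description, and no p-value is given for a member.

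The AtSPP-overexpressed lines carried full-length AtSPP between the CaMV 35S promoter, which is active in most plant tissues, and the Nos terminator, in a binary vector. The sample labels call this vector pZH2B, pZH3B and pZH4B for replicates 1, 2 and 3, whereas the study's methods name pZH2B alone, so whether the vectors differed is not settled. The knockdown lines carried an RNAi construct against AtSPP, made with a 600 bp fragment for replicate 1 and with a 400 bp fragment for replicates 2 and 3. Col-0 was the untransformed parental strain. All seedlings were 7 days old and had grown on half-strength MS medium with 0.8% agar, 20 plants were pooled per sample, and each of the 3 samples of a group was hybridized to 1 array. The labels speak of 3 lines for overexpression and 3 for knockdown without saying which array holds which. By its fragment, knockdown replicate 1 came from another line than replicates 2 and 3, so the knockdown spread also spans both fragments. Otherwise lines and pools of plants cannot be told apart. Nothing states more than separate pools for Col-0, so the spread between these arrays may be partly technical.

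Signal peptide peptidases are aspartic proteases of the endoplasmic reticulum membrane that cut signal peptides left in the membrane after signal peptidase has released the secreted protein. Proteins of the plant cell wall and apoplast, among them many chitinases, lipid transfer proteins, class III peroxidases and pectin methylesterase inhibitors, are made with such signal peptides. Arrays of this kind measure the transcripts of these genes and not the cutting of their peptides. In whole seedlings, fewer cells of a type and less RNA per cell cannot be told apart.

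The arrays had been normalized with the distribution free weighted (DFW) algorithm, which draws together arrays that differ little, so a difference is in DFW units and is not a fold change. Differences are therefore given here in steps of 0.0001, the smallest difference that made a member. The gene used to check the labels, AtSPP, gave mean DFW signals (± SD, n = 3 each) of 7.97 ± 0.011 for Col-0, 8.19 ± 0.035 for overexpression and 7.93 ± 0.0096 for knockdown, and its 3 groups did not overlap. Among 6 shoot and 6 root marker genes, 2 shoot genes and 0 root genes had a probe set paired with 1 gene, so the labelled tissue was not checked further.

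The selection narrowed quickly. The 3 AtSPP-overexpressed arrays lay outside the range of the other 6 at 767 probe sets, 497 of them higher and 270 lower. The difference of at least 1 step left 106 of these, 49 higher and 57 lower, and the overlap of knockdown and Col-0 left 54. GI (AT1G22770), which encodes the clock protein GIGANTEA, met these conditions but was left out by name, which gave the 53. Through the platform annotation 29 members had 1 gene, 14 of them higher and 15 lower, 3 had several genes and 21 were not listed and stay unnamed. The 29 were 29 different genes.

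The members ranged in their difference from Col-0 from -89.7 to 14.8 steps. The 22 higher members had a median of 2.55 steps, and the 31 lower members a median of -2.82 steps. The size of the difference had a median of 2.76 steps over the members and 0.0301 steps over all probe sets. The members were brighter than most probe sets, with a median signal of 7.16 against 6.3, and 46 of the 53 lay above the median of all. They also varied more between replicates of a group, with a median SD of 1.01 steps against 0.0471 steps over all probe sets. The larger size follows from the floor of 1 step. Signal and SD were not compared with those of other probe sets that pass this floor, so they are not read as traits of the members.

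**Figure D1:**
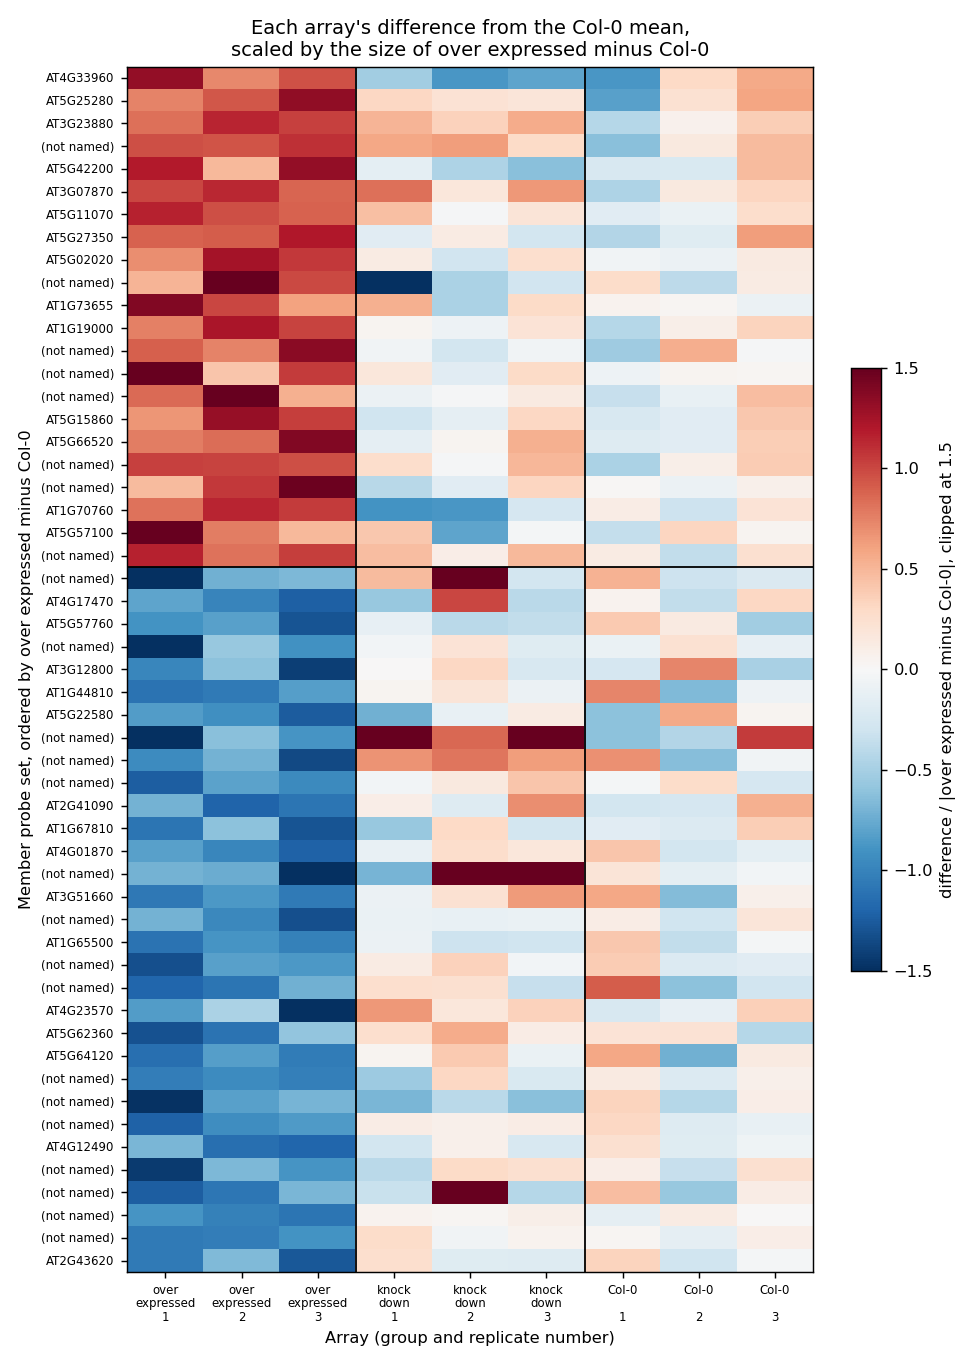
Each row is a member and each column an array. The colour is the array's difference from the Col-0 mean divided by the size of that member's AtSPP-overexpressed minus Col-0 difference, so that 1 or -1 is the mean AtSPP-overexpressed value. The 22 higher members stand above the horizontal line and the 31 lower members below it, and the colours of the knockdown arrays differ between members.

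Among lower members with 1 gene, the 4 with the largest differences encode a chitinase, a protein of the lipid transfer type, a peroxidase and an enzyme inhibitor. AT2G43620, a member of the chitinase family, whose enzymes cut the chitin of fungal walls, stood at -95.3, -59.4 and -114 steps from the Col-0 mean on the AtSPP-overexpressed arrays of replicates 1, 2 and 3. The knockdown arrays stood at 22.6, -15.9 and -17.0 steps and the Col-0 arrays at 30.1, -27.1 and -3.08 steps. The knockdown and Col-0 arrays thus covered much the same range, and all 3 AtSPP-overexpressed arrays lay below it by at least 32.3 steps. The mean difference from Col-0 was -89.7 steps in the AtSPP-overexpressed lines and -3.42 steps in the knockdown lines, the former being the lowest value of any member.

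AT4G12490, a small proline-rich protein of the lipid transfer type, stood at -23.1, -38.0 and -40.1 steps on the AtSPP-overexpressed arrays. Its knockdown arrays stood at -9.16, 2.76 and -8.00 steps and its Col-0 arrays at 8.05, -6.06 and -1.99 steps, which left a gap of 14.0 steps below the lowest of these 6 arrays. AT5G64120, a class III peroxidase of the cell wall, stood at -13.8, -10.1 and -12.9 steps. The lowest Col-0 array of the peroxidase came close to this range, at -8.78 steps, while the other two were at 7.07 and 1.70 steps, and its knockdown arrays lay at 0.44, 4.83 and -1.15 steps. AT5G62360, of the family of invertase and pectin methylesterase inhibitors, stood at -11.4, -9.71 and -5.17 steps, below its knockdown arrays at 2.25, 4.83 and 0.952 steps and below its Col-0 arrays at 1.84, 1.94 and -3.78 steps. In all 4 genes the AtSPP-overexpressed arrays were apart from the others, by gaps that ran from 1.28 steps for the peroxidase to 32.3 steps for the chitinase.

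SGT1A (AT4G23570) followed by size. It encodes a co-chaperone of HSP90 that helps to keep immune receptors stable. Its AtSPP-overexpressed arrays stood at -3.24, -1.83 and -6.50 steps, its knockdown arrays at 2.53, 0.664 and 1.36 steps and its Col-0 arrays at -0.908, -0.464 and 1.37 steps. The mean differences from Col-0 were -3.86 steps in the AtSPP-overexpressed and 1.52 steps in the knockdown lines, so the means of both kinds of line lay on either side of Col-0.

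**Figure D2:**
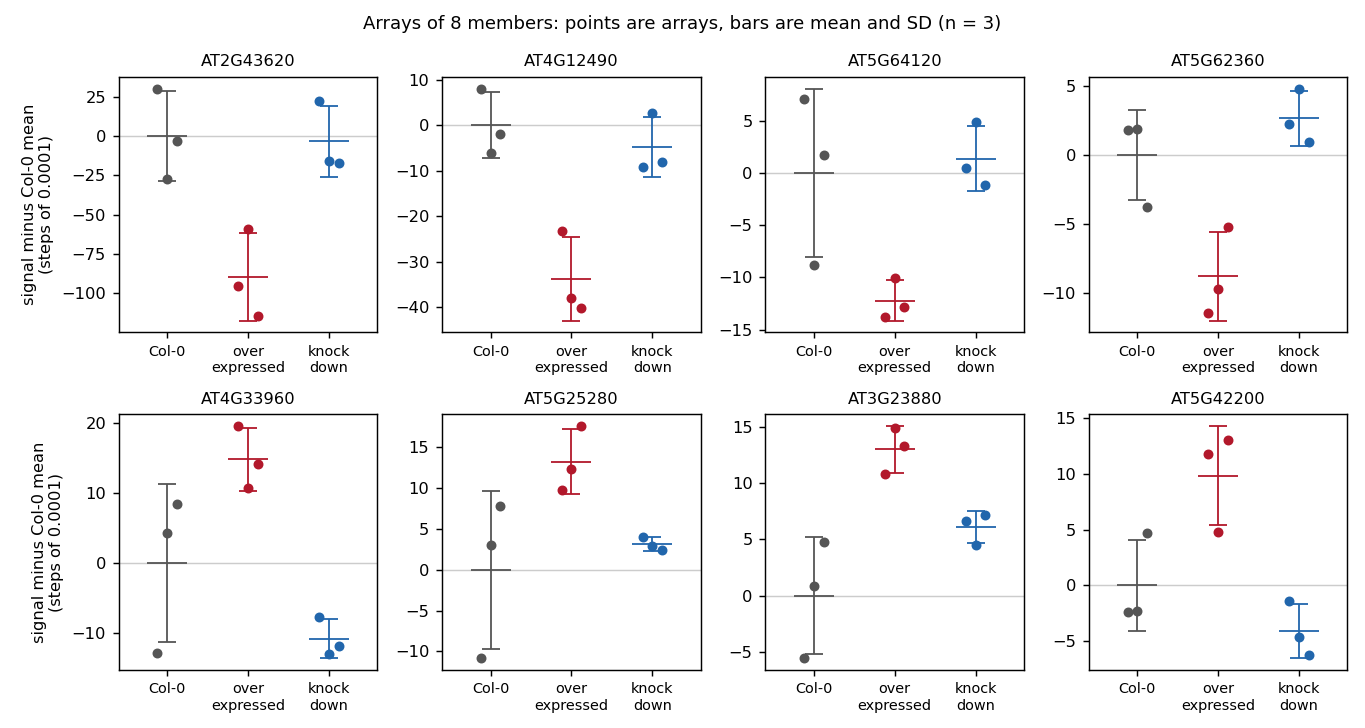
Signal of 8 members on each array, as the difference from the Col-0 mean in steps of 0.0001 DFW units, with points for arrays and bars for the mean and SD of 3 arrays per group. The upper 4 genes have all AtSPP-overexpressed arrays below the other 6 and the lower 4 have them above, with the widest gap in AT2G43620.

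The remaining 10 lower members with 1 gene had differences from -3.16 to -1.19 steps. AT1G65500 stood at -3.48, -2.79 and -3.20 steps on the AtSPP-overexpressed arrays, against a lowest value of -1.17 steps on the other 6. AT4G01870, related to the bacterial TolB protein, stood at -1.87, -2.24 and -2.76 steps, with -0.619 steps as the lowest of the other arrays. Both genes kept over 1 step between the groups, 1.62 steps for AT1G65500 and 1.25 steps for AT4G01870. In AT3G51660, a homolog of the animal cytokine MIF, the mean difference was -2.63 steps with a gap of 0.55 steps. For AT2G41090, a calmodulin-like protein that binds calcium, it was -1.95 steps with a gap of 0.842 steps.

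The arrays of the other 6 lay closer together. SUFE2 (AT1G67810), which takes part in the transfer of sulfur for iron-sulfur clusters in plastids, was lower by a mean of -2.26 steps, and its nearest knockdown array lay 0.0923 steps away. SDRB (AT3G12800), a short-chain dehydrogenase-reductase of peroxisomes, differed by -1.38 steps with a gap of 0.17 steps. AT5G22580, a small protein with a stress-responsive A/B barrel domain, differed by -1.5 steps, AT1G44810, a DNA-binding protein of the GeBP family, by -1.44 steps, AT5G57760, of unknown function, by -1.20 steps and AT4G17470, of the palmitoyl thioesterase family, by -1.19 steps. All 4 had gaps under 0.5 steps, the widest being 0.347 steps in AT5G57760.

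Among the higher members with 1 gene, the 5 with the largest differences were AT4G33960, AT5G25280, AT3G23880, AT5G42200 and AT3G07870. AT4G33960, of unknown function, had the highest difference of any member: its AtSPP-overexpressed arrays stood at 19.6, 10.7 and 14.1 steps, its knockdown arrays at -7.65, -12.9 and -11.8 steps and its Col-0 arrays at -12.8, 4.36 and 8.48 steps. The Col-0 array of replicate 1 was as low as the knockdown arrays, and the other two Col-0 arrays lay between the knockdown and the AtSPP-overexpressed arrays. AT3G23880, an F-box protein, the kind of subunit that selects targets for ubiquitin ligases, stood at 10.8, 14.9 and 13.3 steps in the AtSPP-overexpressed lines, at 6.61, 4.49 and 7.16 steps in the knockdown lines and at -5.56, 0.806 and 4.75 steps in Col-0. Of its 3 knockdown arrays 2 lay above all Col-0 arrays, and the highest of them was 3.61 steps below the lowest AtSPP-overexpressed array.

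AT3G07870, a second F-box gene, had its means in the same order: its AtSPP-overexpressed arrays stood at 8.5, 9.64 and 7.45 steps, its knockdown arrays at 7.06, 1.46 and 5.57 steps and its Col-0 arrays at -3.99, 1.25 and 2.74 steps. Only 0.398 steps lay between the lowest AtSPP-overexpressed and the highest knockdown array. AT5G42200, a RING finger protein of the type that acts as a ubiquitin ligase, stood at 11.7, 4.79 and 13 steps, with replicate 2 only 0.134 steps above the highest Col-0 array. Its knockdown arrays, at -1.40, -4.61 and -6.19 steps, reached below the Col-0 arrays, which stood at -2.35, -2.30 and 4.66 steps.

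AT5G25280, a serine-rich protein, stood at 9.81, 12.3 and 17.6 steps, above its knockdown arrays at 4.08, 2.87 and 2.44 steps and its Col-0 arrays at -10.8, 3.04 and 7.78 steps. A second serine-rich gene, SIS (AT5G02020), known for its induction by salt, stood at 2.99, 5.31 and 4.5 steps, and its other 6 arrays lay between -1.23 and 1.08 steps. The gap was close to 2 steps in both genes, at 2.03 and 1.92 steps. AT5G11070, of unknown function, had arrays at 7.46, 6.23 and 5.68 steps and a gap of 2.73 steps. SFP1 (AT5G27350), a sugar transporter of the monosaccharide transporter family, had arrays at 4.63, 4.75 and 6.28 steps and a gap of 1.36 steps.

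The 6 other higher members with 1 gene had differences from 1.02 to 2.76 steps. AT1G73655, a prolyl isomerase of the FKBP type, stood at 3.82, 2.76 and 1.68 steps, close above its highest knockdown array at 1.48 steps. NdhL (AT1G70760), a subunit of the chloroplast NADH dehydrogenase-like complex, stood at 0.89, 1.24 and 1.14 steps, above its highest Col-0 array at 0.218 steps, while its knockdown arrays were at -0.974, -0.947 and -0.27 steps. AT5G66520, a pentatricopeptide repeat protein of chloroplast RNA editing, differed by 1.52 steps. The others were AT1G19000, a MYB-like protein, at 2.35 steps, PCME (AT5G15860), an esterase that acts on prenylated cysteine, at 1.56 steps, and AT5G57100 at 1.02 steps. The gaps of these 6 genes lay between 0.0894 and 0.989 steps.

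The unnamed members included some of the widest gaps. The probe set 254820_s_at, which the annotation pairs with several genes, stood at -78.1, -76.3 and -65.7 steps in the AtSPP-overexpressed lines, at 19.8, -4.20 and 3.80 steps in the knockdown lines and at 2.01, -9.71 and 7.70 steps in Col-0. Its gap of 56.0 steps was the widest of all members. The probe set 253970_at stood at -57.3, -65.4 and -71.0 steps against -8.40 to 7.79 steps on the other 6 arrays, a gap of 48.9 steps. Of the unnamed higher members, 253872_at had the largest difference, at 10.7 steps, with a gap of 3.27 steps. A signal of a probe set with several genes, and of one whose probes fit near-identical family members, cannot be assigned to 1 transcript.

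Over all members the gap between the AtSPP-overexpressed arrays and the nearest other array ran from 0.00473 to 56.0 steps with a median of 0.672 steps. It was over 1 step in 21 members, 7 higher and 14 lower, and under 0.5 steps in 23. At the edge of the selection, the smallest differences inside it were 1.01 and 1.02 steps among the higher members, the latter in AT5G57100, and -1.03 and -1.19 steps among the lower ones, the latter in AT4G17470. The nearest probe sets outside it had 0.971 and 0.913 steps, and on the lower side AT1G70420 had -0.966 and AT3G01060 -0.896 steps.

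In the knockdown lines the members' differences from Col-0 ranged from -10.8 to 10.1 steps with a median of 0.176 steps. Their size, whatever the sign, had a median of 0.669 steps, against 0.0403 steps over all probe sets. The selection had asked for overlap of these 2 groups, and the members' median SD within a group was 1.01 steps. Nothing about the knockdown is therefore read from the contrast with all probe sets. The knockdown difference had the same sign as the AtSPP-overexpressed difference in 23 members and the opposite sign in 30. Both comparisons share the Col-0 arrays. In 35 members the size of the knockdown difference was at most 25% of that of the AtSPP-overexpressed difference, whereas in 6 it was above 25% with the same sign and in 12 above 25% with the opposite sign. The F-box genes AT3G07870 and AT3G23880 were among the 6, with 55.0% and 46.9% of the AtSPP-overexpressed difference, as was AT5G57760 with 30.0%. AT4G33960, NdhL and AT5G42200 were among the 12, with -72.8%, -67.2% and -41.3%, together with SGT1A at -39.3%, AT5G62360 at -30.5% and AT3G51660 at -26.0%.

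**Figure D3:**
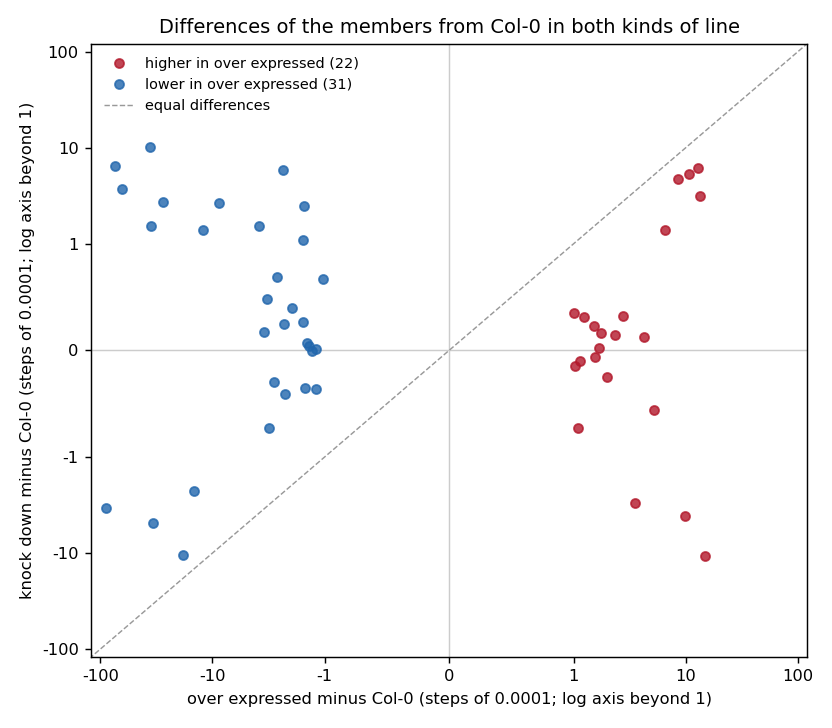
Each point is a member, with its AtSPP-overexpressed minus Col-0 difference on the horizontal axis and its knockdown minus Col-0 difference on the vertical axis, both in steps of 0.0001 on axes that are linear up to 1 step and logarithmic beyond. The 53 points lie off the dashed line of equal differences, and 30 of them have differences of opposite sign.

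The limma fit across all probe sets called few members, and since the selection used the same contrasts nothing is read from these counts. For overexpression against Col-0, limma called 2 of the 53 members at an adjusted p under 0.05, against 0.545% of all probe sets. These were 254820_s_at and 253970_at, so that 2 of 31 lower members were called against a background of 0.246%, and 0 of 22 higher members against 0.299%, 20 of them at an unadjusted p under 0.05. At an unadjusted p under 0.05 there were 46 members, of 2904 probe sets in all. Rank products, the test named in the study, called 25 members, 10 higher and 15 lower, against 2.82% of all probe sets. The number called by limma was 0 without AtSPP-overexpressed replicate 2 and without Col-0 replicate 2, and 1 without AtSPP-overexpressed replicate 1 or 3, knockdown replicate 3 or Col-0 replicate 1 or 3.

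Between the AtSPP-overexpressed and the knockdown lines limma called 11 members, 2 higher and 9 lower, against 4.33% of all probe sets. SIS and NdhL were the 2 higher ones, and AT5G62360 and AT4G01870 were the 2 of the 9 lower ones that have 1 gene. Between the knockdown lines and Col-0 limma called 0 members, with 2 at an unadjusted p under 0.05, where 13.5% of all probe sets were called and 6093 had an unadjusted p under 0.05.

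The arrays of a group did not fall evenly within the members. The same counts were not made over all probe sets, so this order is not read as a trait of the members. Col-0 replicate 1 was the lowest Col-0 array in 16 of the 22 higher members and Col-0 replicate 3 the highest in 17. In the 31 lower members Col-0 replicate 2 was the lowest Col-0 array in 21, and AtSPP-overexpressed replicate 2 was the lowest of its group in 1, against 17 for replicate 1 and 13 for replicate 3. AtSPP-overexpressed replicate 2 was the highest of its group, and so the nearest to the other arrays, in 15 of these 31. Without it 97 probe sets met the selection, 71 of them lower, among them all 53 members. Without AtSPP-overexpressed replicate 3 the number was 87, of which 44 were higher. Leaving out an AtSPP-overexpressed array loosens the selection, so a member could be lost only through the floor, and keeping the members was nearly fixed in advance.

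The median of all signals on an array and the shift of a typical probe set differed. The medians of AtSPP-overexpressed replicates 1 and 2 lay 2.47 and 2.28 steps above the mean median of Col-0, that of replicate 3 lay 0.00672 steps above it, and the knockdown medians lay 5.24 to 5.69 steps above it. The median over probe sets of the difference from the average array was only -0.00337 to 0.00427 steps on the 9 arrays, and centring on it kept all 53 members, an alternative chosen after seeing the data. When every array was centred on its median, 40 probe sets met the selection, 13 of which were members, and after quantile normalization 286 did, 14 of which were members. Centring on the medians takes the same 1.59 steps from the AtSPP-overexpressed minus Col-0 difference of every probe set, so by construction the 4 higher members with 1 gene and smaller differences changed sign. After quantile normalization 2 of the 29 members with 1 gene changed sign, AT4G33960 and AT5G57760, and the cause was not tested.

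The members that met the selection after centring and after quantile normalization, each applied alone, were 8, all of them lower members. AT2G43620, the chitinase, and AT4G12490, the protein of the lipid transfer type, were the 2 of these with 1 gene, and 254820_s_at and 253970_at were among the other 6. The differences of the 8 as deposited ran from -89.7 to -14.7 steps. Centring also lowers the knockdown arrays by 5.24 to 5.69 steps against Col-0. Whether a member still met the selection thus depended in part on the size of its difference, and nothing about direction is read from the 8. The peroxidase AT5G64120 and the inhibitor AT5G62360 met it after centring but not after quantile normalization. Of the higher members 2 met it after quantile normalization, AT5G25280 being the one with 1 gene, and 3 after centring, the F-box genes AT3G23880 and AT3G07870 and the unnamed 253872_at. With each of the 9 arrays left out in turn, 13 members met the selection every time, 5 higher and 8 lower.

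**Figure D4:**
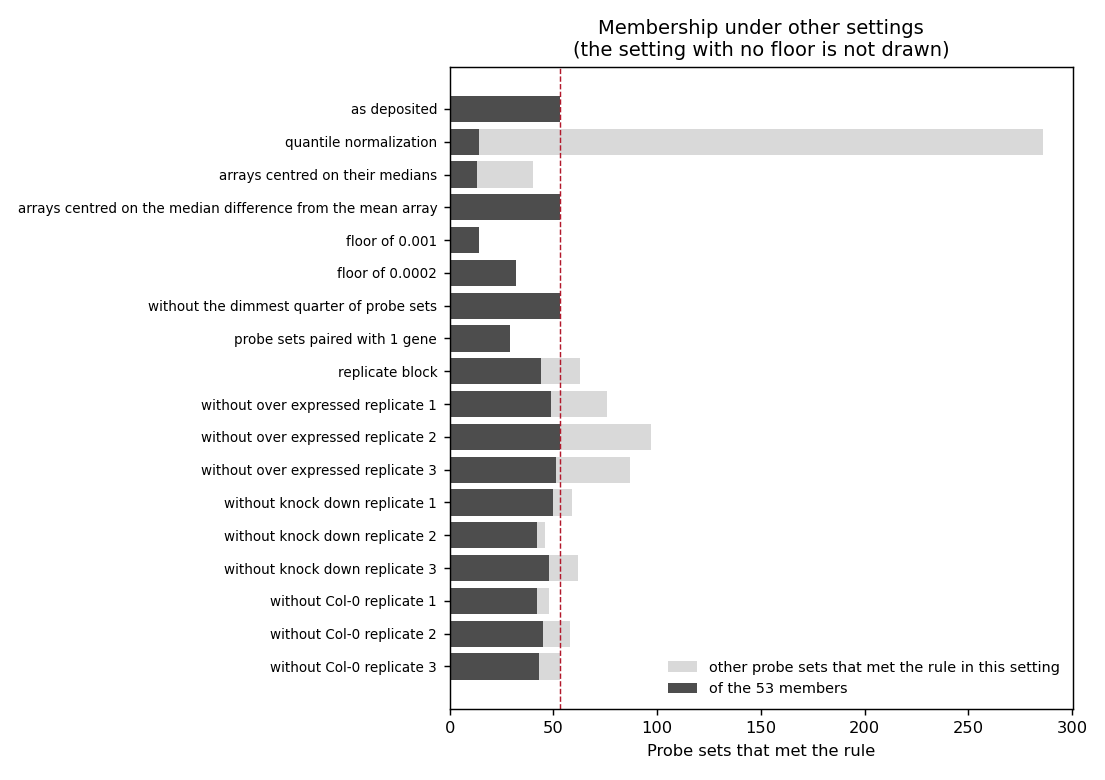
Number of probe sets that met the selection, as bars from 0, under each setting but that with no floor, which gave 575 and is not drawn, with the dark part for those that were among the 53 members as deposited. Quantile normalization gave the longest bar, at 286 probe sets with 14 members, and the dashed line marks 53.

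The genes next to the 29 members with 1 gene were looked up on the chromosome in the RefSeq annotation of TAIR10.1, up to 5 genes to each side. A neighbour counted as measured only if a probe set was paired with it alone. Members with several genes or not listed therefore could not appear as neighbours, even where they lie close to a member. Of 121 measured neighbours 0 were members, 18 had AtSPP-overexpressed arrays that did not overlap those of Col-0, and 0 were called by limma, with 12, or 9.92%, at an unadjusted p under 0.05 against 12.8% of all probe sets. The 18 are 14.9% of the neighbours, where 17.0% of all probe sets did not overlap. Of these 18 neighbours, 9 differed in the direction of the member and 9 in the opposite one. Some neighbours of the same protein family as a member were picked out after their values were seen. AT4G12500, beside AT4G12490, had a difference of -0.679 steps (limma adjusted p = 0.317). Near the chitinase AT2G43620, AT2G43590 had -0.149 steps (limma adjusted p = 0.245), and AT2G43600 and AT2G43610, whose arrays overlapped those of Col-0, had 0.00704 and -0.300 steps. The arrays also overlapped in AT5G64110, the peroxidase gene beside AT5G64120, at 0.127 steps, in SFP2 near SFP1 at 0.0296 steps and in AT4G17480 beside AT4G17470 at 0.0322 steps. AT5G64100, a peroxidase gene near AT5G64120 and 1 of the study's root candidates, stood at 3.67 steps, with AtSPP-overexpressed arrays at 4.12, 3.80 and 3.10 steps above Col-0 arrays at 2.27, -1.07 and -1.20 steps (limma adjusted p = 0.238).

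Of the 29 members with 1 gene, 12 lay on chromosome 5, which holds 22.4% of the probe sets with 1 gene, and these 12 were 41.4% of the 29. They were 8 higher and 4 lower members. Chromosome 2 held 2 members, both lower, and chromosomes 1, 3 and 4 held 6, 4 and 5.

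None of the 29 members with 1 gene belonged to the 22 lists of genes for pathways and tissues that were looked up, of whose 274 genes 41 had a probe set paired with 1 gene. The annotation pairs the 3 members with several genes with known genes, but these were not matched to the lists. Whether any of these 3 belongs to a list, that of the study's candidate substrates included, was therefore not tested. The 21 members not listed in the annotation could not be matched, so whether they belong to a list is unknown. Of the list for pathogen defence, 2 of 14 genes were measured. PDF1.2, a defensin induced by jasmonate and ethylene, had a difference of -75.5 steps, and WRKY53, a transcription factor of senescence and defence, had -108 steps, and neither was called by limma (adjusted p = 0.566 and 0.547). Their differences were thus as large as those of the lowest members, but the AtSPP-overexpressed arrays were not apart from the other 6. Of the 6 measured genes of the unfolded protein response limma called 0, with 3 at an unadjusted p under 0.05, a level that 12.8% of all probe sets reached, and a median of -0.249 steps. Of the 6 measured genes of ER-associated degradation it called 0, with 0 at an unadjusted p under 0.05 and a median of 0.104 steps. Over all lists limma called 1 gene higher, AtSPP, and 2 lower, GI and the heat shock protein gene AT3G09440. GI was the only measured gene of 27 in the list for the clock and flowering, with a difference of -60.0 steps (limma adjusted p = 0.0134).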

How the data were processed

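The authors hybridized 1 ATH1 array per sample, used the DFW algorithm in R to normalize all 9 together; the deposited values, 1 for each array and probe set, were read as log2 values and used unchanged, although no source used here gives the base of the log or a software version. The 64 AFFX controls were left out of 22810 probe sets. Probe sets were named through the platform annotation, with symbols and gene order from RefSeq (TAIR10.1); 13513 of 22746 had 1 gene. Functions of genes listed without a symbol are background knowledge of their families. No sequences of the members were used here.

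Groups were taken from the sample labels. Counts of calls come from limma 3.58.1 in R 4.3.3, with the 9 arrays in 1 fit, 6 residual degrees of freedom, eBayes, two-sided p-values and Benjamini-Hochberg adjustment over all probe sets at a threshold of 0.05, and from rank products with 9 array pairs and 100 permutations. Both steps and the selection were tested on simulated data. The members, the 22 gene lists and the choice of named genes, which takes up to 15 members with 1 gene in each direction, were made with earlier results of these data known. The alternatives were quantile normalization, median centring, other floors, a filter on dim probe sets, probe sets with 1 gene alone, 6 arrays alone, an intensity trend, a replicate block and each array left out. A floor of 0.0002 and a centring of each array on its median distance to the average array were added once the data had been seen. With 3 arrays a group the precision is limited, and whether a probe set was above background is unknown.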

Additional observations from a re-analysis of the deposited data

How the results depend on the processing

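The number of members, 53 (22 higher and 31 lower) as deposited, was 286 (238 and 48) after quantile normalization, 40 (17 and 23) with median centring, 14 (4 and 10) with a floor of 0.001, 32 (12 and 20) with a floor of 0.0002 and 575 (374 and 201) with no floor. It was 29 (14 and 15) over probe sets with 1 gene. Leaving out each array in turn gave 46 (without knockdown replicate 2) to 97 (without AtSPP-overexpressed replicate 2) members, 18 to 44 higher and 27 to 71 lower, with 42 to 53 of the members as deposited among them; without AtSPP-overexpressed replicate 3 it was 87, 44 of them higher. An AtSPP-overexpressed array left out could remove a member only through the floor. Centring each array on its median distance to the average array gave 53, as did leaving out the dimmest 25% of probe sets. Both this centring and the floor of 0.0002 were chosen after seeing the data.

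The 2 members called by limma were 15 after quantile normalization, 16 with median centring and 25 by rank products. They were 0 with the 6 arrays of the comparison alone and 0 to 2 with 1 array left out. With no floor they were 7, among the 575 probe sets that then met the selection. Over probe sets with 1 gene they were 0, but neither of the 2 has 1 gene. The share of all probe sets called is not given for these other limma settings, so nothing is read from the changes. With the replicate number as a replicate block 63 probe sets met the selection, 44 of them members as deposited, and 1 member was called. Same-numbered arrays had correlations of -0.138 to 0.208, above 0.1 in 2 of 9 pairs, and other-numbered arrays had -0.222 to 0.214. With so few arrays in a group, these values cannot decide whether the numbers pair the samples.

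Of the 29 named differences, those of AT4G33960 (-0.863 steps) and AT5G57760 (0.178 steps) changed sign after quantile normalization, for which the cause was not tested. Those of AT5G15860 (-0.0300 steps), AT5G66520 (-0.0668 steps), AT1G70760 (-0.500 steps) and AT5G57100 (-0.564 steps) did so after median centring, which by construction lowers every difference by 1.59 steps. None of the 29 changed sign with 1 array left out or with the block, but neither setting could have changed a sign. The selection puts all AtSPP-overexpressed arrays beyond every Col-0 array, and the block leaves the differences of means as they were.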
